A study of Mus musculus with 2 samples.

Results

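Some of the places where Glis3 was detected on chromatin lay in small groups rather than alone. The sites described here are those of the ChIP-seq site list whose centre was 10000 bp or less from the centre of another listed site on the same chromosome. There were 253 such paired sites among 1343 listed sites (18.8%, exact binomial interval at 95% 16.8 to 21). Chaining sites 10 kb or less apart placed them in 109 loci. The sites were selected on their called positions alone, so the fact that they are close is not a result; their tags, folds, widths and input were not used in the choice, except that every listed site had passed the caller's limits.

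Both libraries came from αTC1-9, a mouse pancreatic α cell line, whose cells expressed a 3xFlag-Glis3-mcherry fusion; there was 1 FLAG precipitate (ChIP) and 1 input library, and no treatment is given in the labels. The ChIP library held 20037091 mapped tags and the input 18603239. The labels give no change to the Glis3 gene of the line itself. No precipitate of cells without it was among the samples, so that background of the FLAG gel and binding of the fusion cannot be told apart. The names of both tag files recorded in the header contain the word Liver, and the precipitation protocol mentions ES cells; the chromatin is described here as αTC1-9 because the labels say so, and the site list holds nothing that could check it. With a single library of each kind there is no replicate error and no test between groups, so the values of the paired sites are set beside those of the 1090 unpaired sites and of the whole list, with intervals that cover counting error only.

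Glis3 is a Krüppel-like zinc finger transcription factor that binds G-rich DNA elements and activates the insulin gene together with other islet factors; loss of its function is known as a cause of neonatal diabetes with hypothyroidism. Transcription factors of this kind often occupy several elements of one promoter or enhancer, and a strong ChIP-seq enrichment can also be called as more than 1 site. The study asked where Glis3 sits in the genome and whether it reaches the insulin promoter. Genes and DNA sequence at the loci were not analysed here, because positions are those of the mm9 build and no mm9 sequence or annotation was used; sites are therefore named by mm9 position as deposited.

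The usual paired locus was a simple pair. Of the 109 loci, 84 held 2 sites (77.1%, 68 to 84.6), 19 held 3, 3 held 4, 2 held 5 and 1 held 6. The 84 simple pairs accounted for 168 of the 253 sites, and the loci of 3 for 57. A locus spanned a median of 2080 bp from its first to its last base (quartiles 800 and 6300 bp; range 280 to 27820 bp). If each locus were counted once, the list would hold 1199 regions instead of 1343 sites.

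The distance between neighbours within a locus was most often short. Over the 144 gaps between neighbouring centres, the median was 1360 bp (95% order-statistic interval of the median 1010 to 2430 bp; quartiles 517.5 and 5117.5 bp). Gaps of 1000 bp or less numbered 59 (41%), and 34 of these were of 500 bp or less. Per kb, the number of gaps fell from 59 in the first to 24, 11, 6 and 5 in the next 4, was 15 between 5 and 6 kb, and then lay between 4 and 7. Whether the 15 differ from the numbers beside them was not tested. The whole list had 58 gaps between 10 and 20 kb, against 144 up to 10 kb. No gap was shorter than 220 bp, close to the 210 bp that the caller took as the mean fragment length, and 26 gaps were of 420 bp or less, which is 2 fragment lengths. Sites this close draw on overlapping fragments, so their tag counts may not be separate measurements; whether the caller counts a tag for more than 1 site is not stated in the header.

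**Figure D1:**
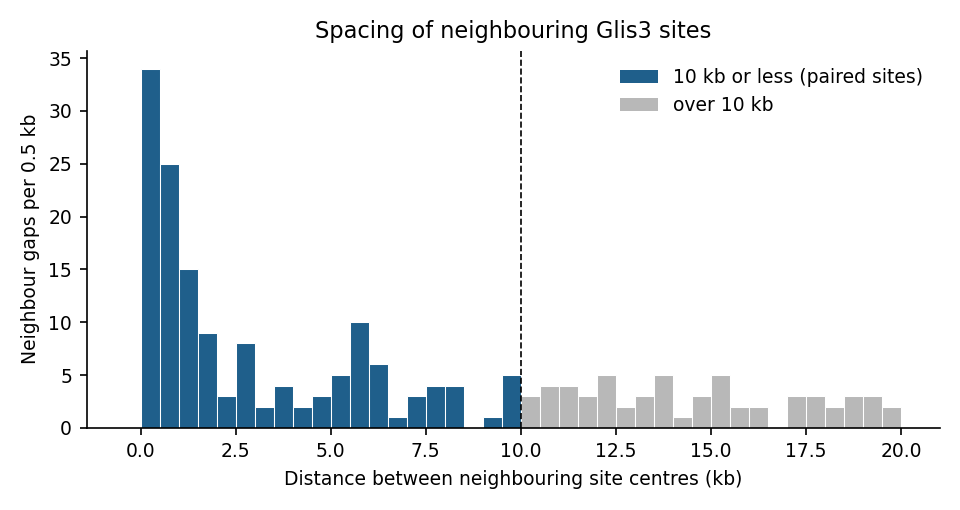
Number of gaps between neighbouring site centres (y axis, per 0.5 kb) against the distance (x axis, kb), for distances up to 20 kb; blue bars are the gaps of 10 kb or less that define paired sites, grey bars longer gaps, and the dashed line marks 10 kb. The first bar holds 34 gaps and the second 25, and the bar from 5.5 to 6 kb holds 10.

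The closest neighbours were the 2 sites on chromosome 7 at 141416091 to 141416151 and 141416311 to 141416371, 220 bp apart, with 26 and 37 tags. The ratio of their tags, 1.42, had an exact interval that included 1 (0.839 to 2.45). Next came 3 pairs 240 bp apart. On chromosome 2, a site at 166965451 to 166965491 had 66 tags and its neighbour at 166965671 to 166965751 had 20. On chromosome 11, the sites at 93995851 to 93995891 and 93996091 to 93996131 had 46 and 26 tags. On chromosome 17, those at 31991511 to 31991551 and 31991751 to 31991791 had 19 and 48. The fifth pair, on chromosome 2 at 173886591 to 173886631 and 173886831 to 173886891, was 250 bp apart with 47 and 20 tags. In 4 of these 5 pairs the interval of the ratio of tags excluded 1. By fold over input 3 of the 4 were closer to level: 20.9 and 19 for the first chromosome 2 pair, 18.1 and 22.8 on chromosome 17, and 22.4 and 19 for the other chromosome 2 pair. The chromosome 11 pair had folds of 43.8 and 24.7.

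At the other end of the range, the 0.5 kb below the 10 kb limit held 5 gaps and the 0.5 kb above it 3. Just inside it were pairs 9710 bp apart on chromosome 11 (21 and 32 tags, from 100480751 to 100490531), 9880 bp apart on chromosome 16 (20 and 19 tags, from 11755691 to 11765611) and 10000 bp apart on chromosome 8 (45 and 23 tags, from 122923531 to 122933731). Just outside were pairs 10130 bp apart on chromosome 16 (47 and 27 tags, from 30735571 to 30745851), 10200 bp apart on chromosome 2 (20 and 43 tags, from 167581691 to 167591991) and 10320 bp apart on chromosome 1 (40 and 24 tags, from 74932211 to 74942631). The gap of exactly 10000 bp joined what would otherwise be 2 loci on chromosome 8.

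Paired sites carried more ChIP tags than unpaired sites, mainly through a larger share of strong sites. A paired site had a median of 26 tags (interval of the median 24 to 28; quartiles 21 and 38; range 19 to 94), an unpaired site 23 (23 to 24; quartiles 20 and 31; range 19 to 94). With 38 or more tags there were 65 of the 253 paired sites (25.7%, 20.4 to 31.5), against 16.5% of the whole list and 157 of the 1090 unpaired sites (14.4%, 12.4 to 16.6). The intervals of the paired and unpaired shares did not overlap. With 50 or more tags there were 26 paired sites (10.3%, 6.82 to 14.7; whole list 6.18%) and 57 unpaired sites (5.23%, 3.98 to 6.72). At the calling floor of 19 or 20 tags there were 47 paired sites (18.6%, 14 to 23.9) and 289 unpaired ones (26.5%, 23.9 to 29.2). These intervals treat sites as independent, which sites of one locus may not be.

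Seen from the other side, a strong site had company more often than a weak one. Of the 222 sites with 38 or more tags, 65 were paired (29.3%, 23.4 to 35.7), against 188 of the 1121 sites below 38 tags (16.8%, 14.6 to 19.1). Among sites of 19 or 20 tags it was 47 of 336 (14%, 10.5 to 18.2). The share with 38 or more tags was similar over the range of distances within 10 kb: 30.3% of the 66 sites whose nearest neighbour was at 220 to 500 bp, 25% of 44 over 500 and up to 1000 bp, 22.5% of 80 over 1000 and up to 5000 bp and 25.4% of 63 over 5000 and up to 10000 bp. It was 17.2% (13.6 to 21.4) of 383 sites with a neighbour at 10 to 100 kb and 12.9% (10.5 to 15.6) of 707 sites farther away. The order within 10 kb was not resolved, since the 4 intervals overlapped widely.

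**Figure D2:**
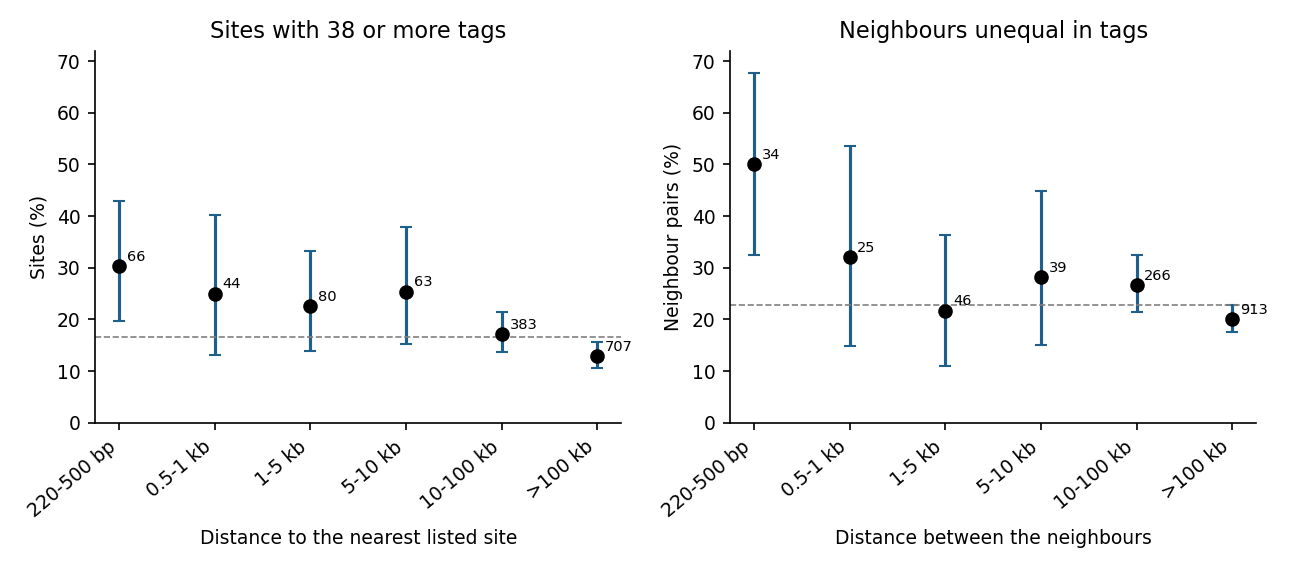
Left, share of sites with 38 or more ChIP tags (%) by distance to the nearest listed site; right, share of neighbour pairs (%) whose tag ratio has an exact 95% interval that excludes 1, by the distance between them. Points carry exact binomial 95% intervals and the number of sites or pairs, and dashed lines mark the whole list (16.5% and 22.7%); the left panel runs from 30.3% at 220 to 500 bp to 12.9% over 100 kb, and the right panel is highest, at 50%, for pairs 220 to 500 bp apart.

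By the caller's own p-value and fold the same order was seen. A p of 1e-05 or less was listed for 49 paired sites (19.4%, 14.7 to 24.8), against 13.1% of the whole list and 127 unpaired sites (11.7%, 9.81 to 13.7). The median fold over input was 22.8 for paired sites (quartiles 20 and 30.4) and 21.9 for unpaired sites (19 and 26.6), 2 medians whose intervals touched (21.9 to 23.8 and 20.9 to 21.9). The closest sites did not lead by these measures. With a neighbour at 220 to 500 bp, the median fold was 21.9 (20.9 to 23.8), and 15.2% (7.51 to 26.1) had such a p. The share was 20.5% over 500 and up to 1000 bp, 23.8% up to 5000 bp and 17.5% up to 10000 bp, with intervals that overlapped. Tags, fold and p are not independent, since the caller derives the last 2 from the first and the input.

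Within a locus, the site with the most tags is called the main site and the others lesser sites. By this definition the main site is the higher one, so the size of the step, not its direction, is the measurement. Main sites had a median of 36 tags (32 to 40; quartiles 27 and 47; range 19 to 94) and the strongest lesser sites 23 (22 to 24; quartiles 21 and 27; range 19 to 68). The median of unpaired sites, 23, was reached by 102 of the 109 main sites and by 60 of the 109 strongest lesser sites. A main site was picked as the highest of several, so its place above single unpaired sites is partly built in. The 35 sites that ranked below these in their locus had a median of 20 tags (19 to 22), with 2 of them at 38 tags or more.

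Within a locus the ratio of main to strongest lesser tags was modest. Its median was 1.42 (1.28 to 1.52; quartiles 1.15 and 1.79; range 1 to 3.3). It was under 1.25 in 38 loci, 2 or more in 17 loci, and exactly 1 in 2 loci. The ratio cannot be below 1, because the higher site was put first. It was also limited from above: no site under 19 tags was listed, so weaker partners do not enter. The exact interval of the ratio excluded 1 in 34 loci (31.2%). In the other 75 loci the 2 leading sites were not told apart at these counts. The interval is 2-sided, so in loci of 2 sites the count does not depend on that order. In larger loci the 2 compared sites were chosen by their tags. Over all neighbour pairs of the list, which were not chosen by tags, the share was 22.7%.

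**Figure D3:**
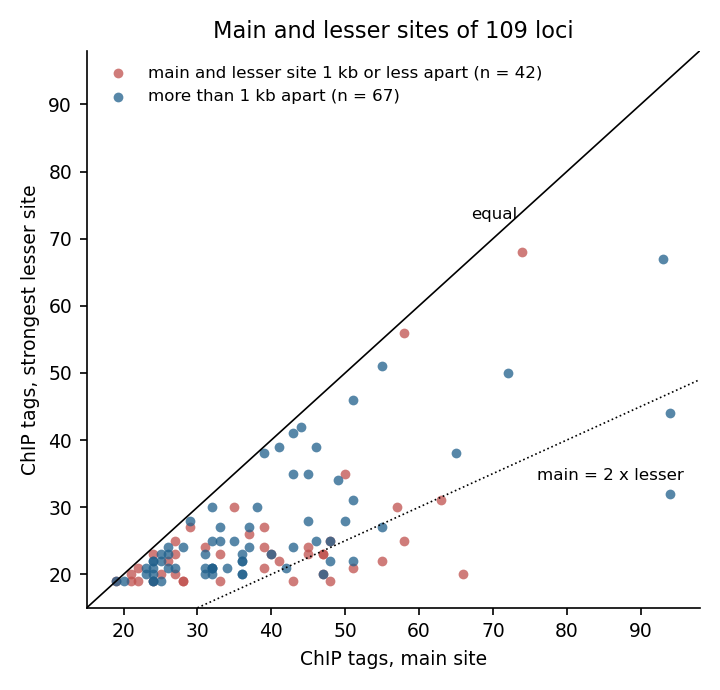
ChIP tags of the main site (x axis) and of the strongest lesser site (y axis) in each of the 109 loci, in red for the 42 loci where these sites were 1 kb or less apart and in blue for the 67 where they were farther apart. The solid line marks equal tags and the dotted line a main site with 2 times the lesser tags; 17 points lie on or below the dotted line.

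Neighbours were also compared in order along the chromosome, which takes in every neighbouring pair and not only the leading sites of a locus. The ratio interval excluded 1 for 46 of the 144 neighbour pairs within 10 kb (31.9%, 24.4 to 40.2), against 22.7% of all 1323 neighbour pairs in the list and 254 of the 1179 pairs more than 10 kb apart (21.5%, 19.2 to 24). The share was highest for the closest pairs: 17 of 34 at 220 to 500 bp (50%, 32.4 to 67.6), 8 of 25 over 500 and up to 1000 bp (32%, 14.9 to 53.5), 10 of 46 over 1000 and up to 5000 bp (21.7%, 10.9 to 36.4) and 11 of 39 over 5000 and up to 10000 bp (28.2%, 15 to 44.9). The median ratio of the larger to the smaller count was 1.71 (1.32 to 2.03) at 220 to 500 bp and 1.30 (1.27 to 1.32) over all neighbours. By fold over input the closest pairs did not stand out in this way: the median ratio of the larger to the smaller fold was 1.26 (1.18 to 1.47) at 220 to 500 bp and 1.25 (1.21 to 1.26) over all neighbours. Higher counts narrow the interval, and close sites were more often strong, and the part of tag number in this share was not tested. Neither side was favoured: the tags rose along the chromosome in 69 and fell in 70 of the 144 pairs.

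Pairs in which both sites were strong were few at every spacing within 10 kb, though their share was above that of the list. Both neighbours had 38 or more tags in 12 of the 144 pairs within 10 kb (8.33%, 4.38 to 14.1). The share was 3.48% of all neighbour pairs and 2.88% (2.01 to 4.01) of the 1179 pairs more than 10 kb apart. The 12 within 10 kb comprised 1 of 34 pairs at 220 to 500 bp, 1 of 25 over 500 and up to 1000 bp, 6 of 46 over 1000 and up to 5000 bp (13%, 4.94 to 26.3) and 4 of 39 over 5000 and up to 10000 bp (10.3%, 2.87 to 24.2). The intervals of the 4 shares overlapped, so their order was not resolved. By locus, 59 held no site with 38 or more tags, 37 held 1, 11 held 2 and 2 held 3.

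The highest tag count in the list, 94, was reached by the main sites of 2 paired loci, and each stood well above its partner. It was not particular to paired sites: among unpaired sites the highest count was also 94 and the highest fold also 89.4. The site on chromosome 11 at 118990171 to 118990231 had 94 tags and an 89.4-fold enrichment, and its partner at 118995211 to 118995251, 5030 bp away, had 44 tags (20.9-fold). The ratio was 2.14 (exact interval 1.48 to 3.13). On chromosome 2, the site at 172866971 to 172867011 also had 94 tags and an 89.4-fold enrichment, and its partner at 172873291 to 172873331, 6320 bp away, had 32 tags (30.4-fold; ratio 2.94, 1.95 to 4.54). Each partner lay above the paired median of 26 tags.

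The other loci with the strongest main sites differed in how evenly the tags were divided. On chromosome 11, a site at 98993711 to 98993771 had 93 tags (29.5-fold) and the site at 99003031 to 99003091 had 67 (31.9-fold); between them, at 98997931 to 98997991, lay a weak site of 20 tags. The ratio of the 2 strong sites was 1.39 (1.00 to 1.93), and by fold the order was the reverse. On chromosome 2, sites at 163264051 to 163264271 and 163269291 to 163269371, 5170 bp apart, had 72 and 50 tags, a ratio of 1.44 whose interval included 1 (0.99 to 2.11). On chromosome 1, sites at 120873211 to 120873431 and 120878911 to 120879231, 5750 bp apart, had 65 and 38 tags (1.71, 1.13 to 2.62). Of the 5 loci named here and just above, 4 were simple pairs with the sites 5030 to 6320 bp apart. In the rest of the 10 loci with the most main tags, the main and strongest lesser sites were 240 to 930 bp apart.

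Shorter distances separated sites of unequal tags at 3 more of the strongest main sites. The ratio of 3.3 on chromosome 2 at 166965451 to 166965751, the pair with 66 and 20 tags described among the closest, was the highest of any locus (1.98 to 5.75). By fold the same 2 sites were nearly level, at 20.9 and 19, because the stronger site had an implied input of 3 tags and the weaker one of 1. On chromosome 12 at 25852531 to 25852891, 63 tags stood 270 bp from 31 (2.03, 1.30 to 3.23). On chromosome 15 at 73562231 to 73562931, 58 tags stood 520 bp from 25 (2.32, 1.43 to 3.87). The remaining loci with the largest ratios were that of 48 and 19 tags on chromosome 17 given above (2.53, 1.46 to 4.55) and 2 on chromosome 2. One of these, at 173615471 to 173616091, had 55 and 22 tags (2.5, 1.5 to 4.31) with folds of 26.2 and 20.9, and the folds of the chromosome 17 locus were likewise nearer, so that the ratio of folds was 1.25 and 1.26. The other, at 173419391 to 173420111, had 51 and 21 tags (2.43, 1.44 to 4.25), and its ratio of folds was 2.43 too. Of the 17 loci with a ratio of 2 or more, 10 had the 2 leading sites 1000 bp or less apart, as did 42 of all 109 loci.

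Some loci held sites of nearly equal strength. On chromosome 16, a site at 35193651 to 35194011 had 51 tags and one at 35189471 to 35189671, 4260 bp away, had 46 (1.11, 0.73 to 1.69). On chromosome 5, sites at 125698291 to 125698491 and 125696231 to 125696611, 1970 bp apart, had 44 and 42 tags (1.05, 0.671 to 1.64). Of the 13 loci with 2 or more sites of 38 or more tags, the interval of the ratio of the leading sites included 1 in 10. No gap of 1000 bp or less was found in 9 of the 13, nor in 59 of all 109 loci.

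The 6 loci of 4 or more sites were of several kinds. The locus with the most tags in sum, 213, lay on chromosome 1 from 95103851 to 95108011 and consisted of 2 pairs 2770 bp apart. Its right-hand pair, at 95107011 to 95107071 and 95107931 to 95108011, had 68 and 74 tags (64.7-fold and 70.4-fold), the 2 strongest neighbours at a distance under 1 kb. Its left-hand pair, 390 bp apart at 95103851 to 95103911 and 95104251 to 95104291, had 19 and 52 tags. On chromosome 15, 4 sites were packed into 1140 bp, from 84526631 to 84527771. In order along the chromosome they had 44, 23, 56 and 58 tags, so that 3 of the 4 reached 38. The fold of the first was 41.9, above the 26.6 and 27.6 of the 2 sites with more tags, each of which had an implied input of 2. On chromosome 7, 4 sites from 4731631 to 4734751 had 55, 51, 21 and 36 tags in order, and the site of 51 tags was 360 bp wide.

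The 3 remaining loci were weaker or looser. The locus with the most sites, 6, lay on chromosome 17 from 8717771 to 8720851 and held no strong site. Its tags in order were 29, 22, 22, 28, 19 and 23, with gaps of 410, 890, 430, 520 and 710 bp, and their exact Poisson intervals all overlapped (11.4 to 29.7 for the lowest, 19.4 to 41.6 for the highest). On chromosome 10, 5 sites from 79613471 to 79628771 had 34, 22, 49, 26 and 20 tags over 15300 bp, the first 3 within 2290 bp. The longest locus, on chromosome 8 from 122921611 to 122949431, covered 27820 bp with 5 sites of 35, 45, 23, 19 and 19 tags. It was a chain of gaps of 2040 to 10000 bp rather than a cluster, and depended on the gap of exactly 10000 bp.

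**Figure D4:**
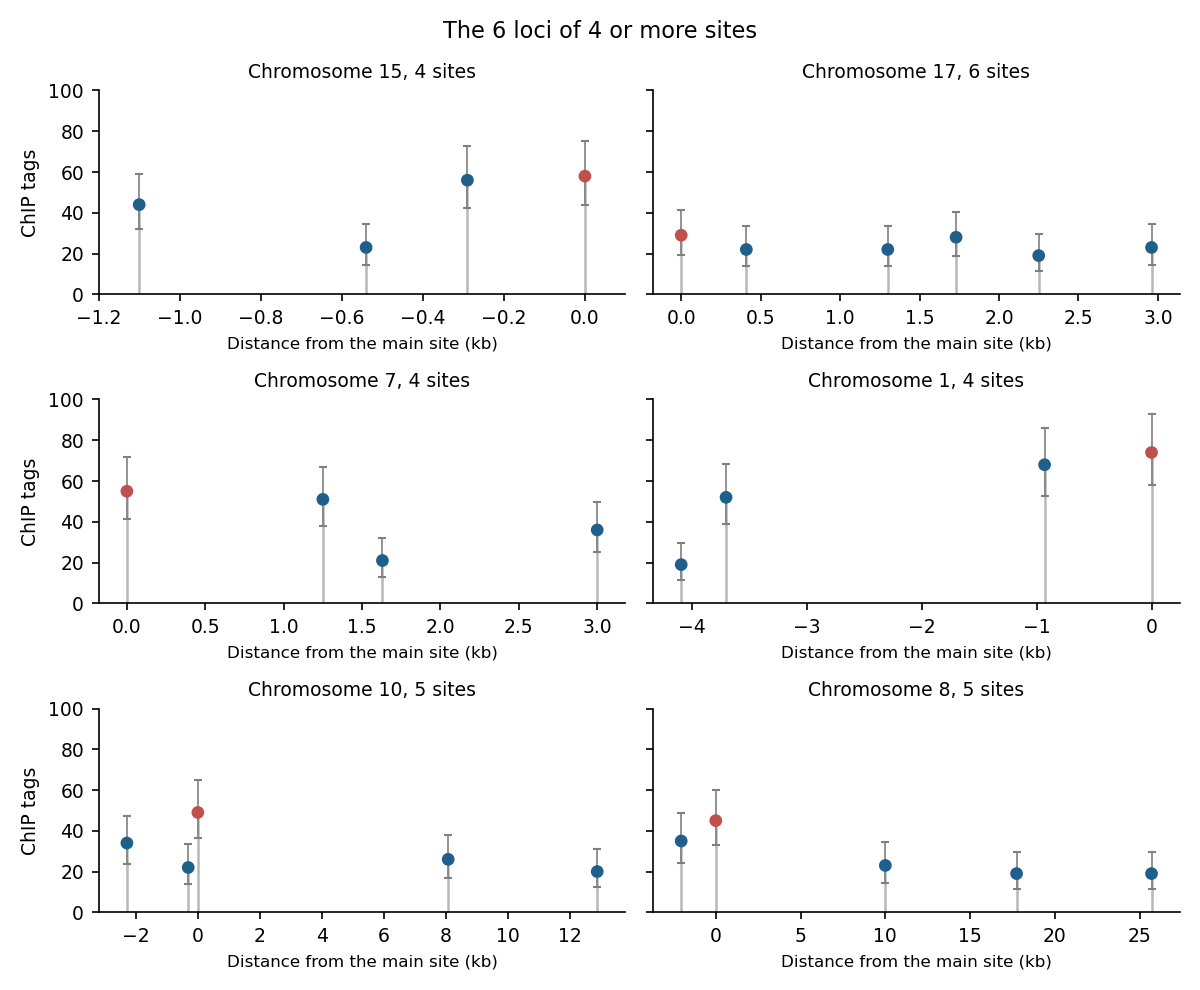
ChIP tags (y axis) of each site in the 6 loci of 4 or more sites, against the distance of its centre from the main site (x axis, kb, with a different scale in each panel). Main sites are red and lesser sites blue, and bars are exact Poisson 95% intervals; the chromosome 15 locus packs 44, 23, 56 and 58 tags into 1140 bp, whereas the chromosome 8 locus is spread over 27820 bp.

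In simple pairs, the main site was the one at the lower position in 44 of 84 loci (52.4%, 41.2 to 63.4). In loci of 3 sites it was the middle one in 6 of 19 (31.6%, 12.6 to 56.6). Loci with a gap of 1000 bp or less (50 loci) had a median of 39 tags at the main site (33 to 45) and 23 at the strongest lesser site, and those with wider gaps only (59 loci) had 34 (32 to 39) and 23. The lesser sites thus had the same median in both sets, and the intervals for the main sites overlapped.

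The called intervals of paired sites were as short as those of the rest of the list. The median width was 60 bp for paired, unpaired, main and lesser sites. Intervals of 40 bp made up 34% of paired sites (28.2 to 40.2) and 33% of unpaired sites (30.2 to 35.9), and intervals of 60 bp 20.6% and 21.7%. Widths of 200 bp or more were found at 38 paired sites (15%, 10.9 to 20), against 12.7% of the whole list. Every width was a multiple of 20 bp, the scanning window of the caller, so that width is a coarse measure. The main site was wider than the strongest lesser site in 40 loci, narrower in 49 and of equal width in 20.

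The widest paired site, on chromosome 17 at 66299431 to 66300011, measured 580 bp and had 33 tags, with its partner 7770 bp away. A site of 440 bp on chromosome 11 at 71943591 to 71944031 had 24 tags and was the lesser partner of a 60 bp site with 39 tags, 410 bp away. The third, of 380 bp, was the chromosome 5 site of 42 tags described above. Of these 3 widest sites, 1 reached 38 tags.

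A whole implied input of 2 or more had a higher share among paired than among unpaired sites, with intervals that overlapped. An implied input of each site was computed from its tags, its fold and the library totals. It was whole and at least 2 at 23 paired sites (9.09%, 5.85 to 13.3), against 5.58% of the whole list and 52 unpaired sites (4.77%, 3.58 to 6.21). The 66 sites with a neighbour at 220 to 500 bp held 11 of them (16.7%, 8.62 to 27.9). The fold limit for a site with an input of 2 needs 38 tags, so every site with a whole input of 2 or more was a strong site. The part of the number of strong sites in these shares was not tested. Among strong sites alone it was 23 of 65 paired sites (35.4%, 23.9 to 48.2) and 52 of 157 unpaired sites (33.1%, 25.8 to 41.1), which the intervals did not separate. For strong sites with a neighbour at 220 to 500 bp it was 11 of 20 (55%, 31.5 to 76.9). This was the highest of the shares by distance, its interval overlapped that of the unpaired sites, and the part of input in the tags of close sites was not tested. Of the 9 sites in the list with an implied input of 3 or 4, 2 were paired: the 93-tag site on chromosome 11 and the 66-tag site on chromosome 2.

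At 17 paired sites (6.72%, 3.96 to 10.5; whole list 6.33%) the implied input was not whole. At all 17 the fold was the one that fewer tags than listed would give at the next lower whole input, which was 1 at 15 sites and 2 at 2 sites; the difference was 1 to 12 tags (median 2). Their median width was 200 bp, against 60 bp for the other paired sites. For sites of this kind tags and fold do not refer to the same number of tags, and a ratio of tags at such a site is not a ratio of folds.

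Paired sites were found on 17 of the 20 chromosomes with listed sites. Chromosomes 3, 9 and X, with 52 listed sites between them, had none. The share of a chromosome's sites that were paired was 31.1% on chromosome 16 (14 of 45; 18.2 to 46.6), 28.2% on chromosome 17 (24 of 85; 19 to 39) and 27.5% on chromosome 11 (41 of 149; 20.5 to 35.4). It was 8.97% on chromosome 4 (7 of 78; 3.68 to 17.6) and 9.52% on chromosome 13 (4 of 42; 2.66 to 22.6). Chromosome 9 had 0 of 32, with an upper limit of 10.9%. Chromosome lengths were not used, and the part of site density in these shares was not tested. Chromosomes 11, 15 and 17 together held 82 of the 253 paired sites (32.4%) and 322 of all 1343 sites (24%).

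The greater share of strong sites was not limited to those 3 chromosomes. Off them, 25.7% of 171 paired sites (19.4 to 33) and 13.4% of 850 unpaired sites (11.2 to 15.9) had 38 or more tags. Chromosome 2, with 16 loci, had a median of 32 tags at its 32 paired sites and 22 at its unpaired sites. Chromosome 17 ran the other way, with a median of 23.5 at 24 paired sites and 27 at unpaired sites.

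Loci were themselves less remote from further sites than unpaired sites were. The next listed site outside a locus was at a median of 88.4 kb (quartiles 28.1 and 309.1 kb), and the nearest site to an unpaired site at a median of 201.1 kb. Another site lay within 100 kb of 60 of the 109 loci (55%, 45.2 to 64.6) and of 383 of the 1090 unpaired sites (35.1%, 32.3 to 38.1). Both measures are of position, which the choice of sites used, and a locus reaches farther than a single site.

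The number and share of paired sites were lower in shorter lists. With only the 681 sites at or above the median tag count, 103 were paired (15.1%, 12.5 to 18), in 48 loci. With the 176 sites of p at most 1e-05, 13 were paired (7.39%, 3.99 to 12.3), in 6 loci. A shorter list has fewer neighbours to offer at any spacing, and the part of the weaker calls in these falls was not tested. With sites within 1000 bp merged to the one with the most tags, 152 of 1284 were paired (11.8%, 10.1 to 13.7), in 68 loci; of these 27% (20.1 to 34.8) had 38 or more tags, against 15.7% (13.7 to 18) of the 1132 unpaired ones. Merging keeps the stronger site by construction, in both sets.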

How the data were processed

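Reads were mapped with Bowtie to mm9, per the submitters' processing notes (version and settings not given in the sources used here). Per the file header, the authors called sites with SISSRs 1.4 on 1 ChIP library (20037091 tags, 19551047 used) against 1 input library (18603239 tags), using a p-value limit of 0.0001 (E-value 10), 20 bp windows and 210 bp fragments; duplicates were reduced to 1 tag per position, and either side of a site had to show 2 directional tags. The deposited columns give the count of ChIP tags, the p-value and the fold (ratio to input) of each site.

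From these, site centres, loci, tag ratios and implied input (tags × input total / used ChIP total / fold, whole within 0.01) were computed with Python 3.11.15, numpy 2.4.6, pandas 2.3.3 and scipy 1.17.1; figures used matplotlib 3.10.9. Intervals are at 95%: exact Poisson for counts, Clopper-Pearson for shares, the exact binomial share for ratios, order statistics for medians. Positions are printed as deposited. No test was run.

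Named were the loci of 4 or more sites, the 10 with most main tags, the 8 with most lesser tags, the 5 largest ratios, the 5 closest pairs, the 3 widest sites and 3 pairs on each side of the limit. Ties went to the higher fold, then the lower position. The sites, limits and naming rule were chosen with earlier results of these data known. On simulated positions with loci kept well apart, the chaining found the planted loci in 50 of 50 sets, which checks the code only. Sequence and genes were not analysed here for want of an mm9 reference.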

Additional observations from a re-analysis of the deposited data

How the results depend on the processing

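Of 55 alternatives over 11 results, 39 stayed within 1.5 times the count or within the interval of the value. The number of paired sites changed from 253 to 110, 153 and 493 at distances of 1000, 2000 and 50000 bp, to 107 with the upper part of the list by fold (median or above) and 103 by tags, to 13 at a p of at most 1e-05 and to 152 with sites within 1000 bp merged, by construction. The number of loci changed from 109 to 51, 70 and 191 at 1000, 2000 and 50000 bp. The median spacing changed from 1360 bp to 890 bp at a limit of 5000 bp and to 4240 bp at 20000 bp, so it describes the limit as much as the sites. The share of strong sites was 54.9% at 25 tags and 10.3% at 50, by construction, and 22.6% to 28.2% with 38 tags over the other settings. The share with an input that was not whole was 3.64% at a distance of 1000 bp; the cause was not tested. The ratio of main to lesser tags ran from 1.35 to 1.47. With the main site chosen by fold, the ratio of folds was 1.29. The ratio of larger to smaller tags at neighbours 500 bp or less apart was 1.71, and 1.26 with folds in place of tags; the cause was not tested. These ratios of folds, the 2 merged-site settings for tags and the setting without chromosomes 11, 15 and 17 were chosen after seeing the data. No paired analysis was possible because neither library was replicated. Comparisons within loci were limited: in 75 of 109 the leading sites had ratio intervals that included 1. The part of depth in this was not tested.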
